A study of Homo sapiens with 6 samples.

Results

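The transcripts described here encode the proteins of the cytosolic ribosome. Members were the genes of the count table whose symbol is RPL or RPS with a number (and, where present, the suffix A, X or L), together with RPLP0, RPLP1, RPLP2 and RPSA. The rule found 84 of the 16934 genes in the table, 52 of the large subunit and 32 of the small subunit. Of the 84, 77 are core ribosomal proteins and 7 are paralogs of a core protein (RPL3L, RPL7L1, RPL10L, RPL22L1, RPL26L1, RPL39L and RPS27L). FAU, which also encodes a ribosomal protein but as a fusion with a ubiquitin-like protein, lies outside the rule. All 84 passed the filter on low counts, RPL10L only through the POLK sgRNA libraries.

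RNA was sequenced from A375, an established human melanoma cell line with an activating BRAF mutation, after CRISPR-Cas9 editing. Cells of the POLK sgRNA group received an sgRNA (guide RNA) against POLK, and cells of the control group a non-targeting sgRNA. All cells of both groups were A375 cells treated with the same Cas9 system, and each group held 3 libraries. POLK encodes DNA polymerase kappa, which extends DNA opposite damaged bases with low fidelity. The labels do not state whether libraries within a group were separate cultures, and the column names share 1 stem per group, so each group may be 1 edited population. A p-value here therefore reflects the spread between libraries, possibly technical, and an effect of the guide and a difference between 2 edited populations cannot be told apart.

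Each cytosolic ribosome holds a single copy of nearly every ribosomal protein, bound to ribosomal RNA in a large and a small subunit. Cells keep the proteins in balance, and the messages of nearly all of them begin with a run of pyrimidines, the terminal oligopyrimidine or TOP motif, through which mTOR signalling controls their translation. A few genes have paralogs that can take the place of the core protein in particular tissues, and free ribosomal proteins can bind the p53 regulator MDM2.

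Libraries held 42852645 to 56891905 counts. Levels are counts per 1000000 counts (CPM) on library sizes scaled by the TMM method, and a fold change is the log2 ratio of POLK sgRNA over control sgRNA. A gene was called changed at an adjusted p under 0.05 in the quasi-likelihood test of edgeR, adjusted by Benjamini-Hochberg over all 13930 genes tested. Under that rule 64.3% of all tested genes were called, 32.8% higher and 31.6% lower with POLK sgRNA, and calls on the members are read against these shares. The targeted gene POLK was at 19.2, 17.2 and 18.1 CPM in the POLK sgRNA libraries, against 23.4, 24.0 and 22.4 CPM in the control libraries. It was lower in all 3 POLK sgRNA libraries, with a log2 fold change of -0.36 (SE 0.05, edgeR adjusted p = 7.91e-08). A count over the whole gene does not show what share of its alleles was edited. Of 8 melanocyte lineage markers, SOX10, S100B and MITF were above 1 CPM, and PMEL, MLANA, TYR, TYRP1 and DCT averaged below 1 CPM in both groups. Control library 1 stood apart in DCT, at 1.49 CPM against 0.0366 and 0.0208 CPM in the other control libraries, and held all 19 TYR counts. Of 4 fibroblast markers 2 were above 1 CPM, and the 4 summed to 22.2 to 22.8 CPM in POLK sgRNA libraries and 15.1 to 15.5 CPM in control libraries, mostly from PDGFRB. Their part in the results was not tested.

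The ribosomal protein transcripts moved little. With POLK sgRNA 36 of the 84 rose (42.9%), 17 fell (20.2%) and 31 were not called, so 63.1% were called. RPL10L, which entered the test only through the group in which it is high, is among the 36. It is also counted in the later splits of all members by subunit, neighbourhood, small nucleolar RNA genes and promoter. Without control library 1, 32 members rose and 19 fell. The median log2 fold change was 0.04 (0.01 without control library 1), beside 0.01 over all tested genes, and the median size of the change regardless of sign was 0.09, beside 0.18 over all tested genes. For 70 of the 84 (83.3%) the change was under 0.2 on the log2 scale, beside 52.8% of all tested genes. At mean levels of 200 CPM or more, 63 of 72 ribosomal protein genes (87.5%) and 65.0% of 883 other genes changed by less than 0.2. Among those same highly expressed genes, 34 of the 72 ribosomal protein genes rose (47.2%) and 14 fell (19.4%), and of the 883 others 26.8% rose and 51.4% fell. By the plainer measure of groups that do not overlap, 36 members were higher and 17 lower with POLK sgRNA, beside 67.7% of all tested genes without overlap (34.6% higher and 33.1% lower). Of the 53 members called by the test, 41 changed by less than 0.2, 28 of them higher and 13 lower. Counts in bulk RNA cannot tell fewer cells of a type from less RNA per cell.

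**Figure D1:**
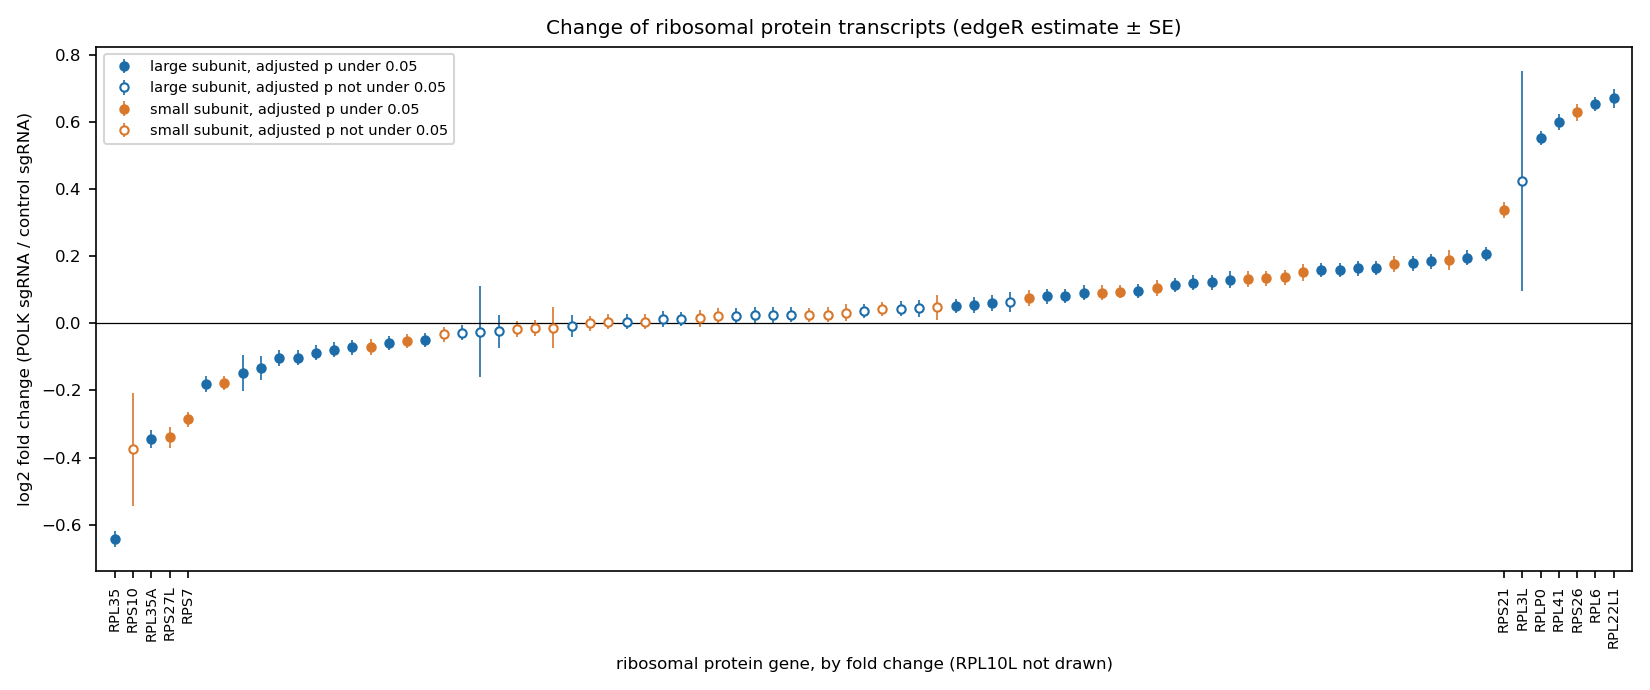
Log2 fold change (POLK sgRNA over control sgRNA, edgeR estimate with its SE as a bar) of 83 ribosomal protein genes in order of size. Filled points passed an adjusted p under 0.05, blue points are large subunit and orange points small subunit genes, names are given for changes of at least 0.28 in size, and RPL10L at 4.84 is not drawn. Most points lie within 0.2 of zero, with RPL22L1, RPL6, RPS26, RPL41 and RPLP0 at the top and RPL35 at the bottom.

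Summed over the 84 genes, the transcripts took 8.08%, 8.21% and 8.22% of all counts in the POLK sgRNA libraries, against 7.52%, 7.67% and 7.84% in the control libraries. The sum was 81237 ± 690 CPM with POLK sgRNA and 77210 ± 1938 CPM with control sgRNA (SD, n = 3 each), a difference of 4027 CPM. The groups did not overlap. Without the 4 members on chromosome 12, a choice made after their values were seen, they did. POLK sgRNA library 1 then had 75547 CPM and control library 3 had 75790 CPM. The log2 change of the sum of all 84 was 0.07, and 0.05 without control library 1. The large subunit summed to 49885 ± 459 CPM with POLK sgRNA and 46882 ± 1107 CPM with control sgRNA, and the small subunit to 31352 ± 231 CPM with POLK sgRNA and 30328 ± 836 CPM with control sgRNA. The small subunit sums of the groups overlapped, since POLK sgRNA library 1 had 31085 CPM and control library 3 had 31191 CPM. By gene, 24 of 52 large subunit members rose and 12 fell (median log2 fold change 0.05), and 12 of 32 small subunit members rose and 5 fell (median 0.03).

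The ratio of summed large to summed small subunit CPM was 1.588, 1.593 and 1.593 in the POLK sgRNA libraries and 1.549, 1.552 and 1.537 in the control libraries. For the sum of all members, not the ratio, RPLP0 gave 20.4% of the difference, RPL6 12.8% and RPL13A 12.5%. The 4 members on chromosome 12 together gave 41.0% of it. Without these 4 genes, a choice made after their values were seen, the ratio was 1.458 ± 0.003 with POLK sgRNA and 1.454 ± 0.008 with control sgRNA, and the groups overlapped.

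The 4 members on chromosome 12 were RPL6, RPS26, RPL41 and RPLP0, and all of them rose by similar amounts. RPLP0 is the base of the stalk that recruits translation factors, RPL41 is the smallest protein of the ribosome, and RPS26 lies near the exit of the mRNA channel and is among the genes mutated in Diamond-Blackfan anaemia. RefSeq starts of RPLP0, RPL41 and RPS26 (GRCh38.p14, 40 bases before to 20 bases from the annotated start on the gene's strand) are shown because their transcripts moved together; that of RPL6 is not shown. Capitals mark the longest run of C and T that overlaps the 10 bases on either side of the start, which is where a TOP motif begins. By the same measure the longest run of RPL6 at its listed start is 5 bases.
RPLP0 (chr12:120201092-120201151, minus strand): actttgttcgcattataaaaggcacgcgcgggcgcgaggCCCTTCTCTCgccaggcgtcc
RPL41 (chr12:56116593-56116652, plus strand): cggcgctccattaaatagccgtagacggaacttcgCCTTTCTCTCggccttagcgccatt
RPS26 (chr12:56041878-56041937, plus strand): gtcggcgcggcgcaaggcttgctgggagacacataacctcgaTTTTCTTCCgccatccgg

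RPL6 had 1427, 1427 and 1398 CPM in the POLK sgRNA libraries, against 889, 898 and 916 CPM in the control libraries. Every POLK sgRNA library was above every control library, with a log2 fold change of 0.65 (SE 0.02, edgeR adjusted p = 1.18e-23). RPS26 had 305, 298 and 300 CPM with POLK sgRNA and 188, 201 and 195 CPM with control sgRNA (log2 fold change 0.63, SE 0.02). RPL41 had 594, 602 and 624 CPM with POLK sgRNA and 395, 400 and 406 CPM with control sgRNA (log2 fold change 0.60, SE 0.02). The groups did not overlap in either gene. RPLP0 had 2567, 2603 and 2584 CPM with POLK sgRNA and 1731, 1745 and 1814 CPM with control sgRNA (log2 fold change 0.55, SE 0.02).

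Genes next to these 4 on the chromosome had moved by about as much. For each member, up to 15 tested genes on either side that are not ribosomal protein genes and average 1 CPM or more were taken as neighbours. The median log2 fold change of the neighbours was 0.63 for RPL6, 0.63 for RPS26, 0.63 for RPL41 and 0.71 for RPLP0. All 30 neighbours of RPS26 were higher with POLK sgRNA, as were all 30 of RPL41, whose neighbours are partly the same genes. RPL6 was higher than the median of its neighbours by 0.02 and RPLP0 lower by 0.15. Why the region moved was not tested.

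The reverse held for the 3 members with a neighbour median of -0.25 or lower, a limit chosen with the values known. RPL35A, a large subunit protein also mutated in Diamond-Blackfan anaemia, changed by -0.35, and the median of its 16 neighbours near the end of chromosome 3 was -0.41, with 15 of the 16 called lower. RPL39L, elsewhere on chromosome 3, changed by -0.15 beside a neighbour median of -0.47, and RPL31 on chromosome 2 by -0.10 beside -0.31. All 3 were called lower. The other 77 members lay where the neighbour median was between -0.19 and 0.17, and 32 of them rose and 14 fell. Among these 77, RPS7 had 19 of 24 neighbours called lower, and RPS27A had 16 of 30 called lower and 2 higher. Over the 77 core members, own change and neighbour median had a Pearson r of 0.75 and a Spearman rho of 0.38. Over the 73 core members off chromosome 12 these were 0.45 and 0.27. These are descriptions across genes of the same 6 libraries, in which neighbouring members share neighbours.

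**Figure D2:**
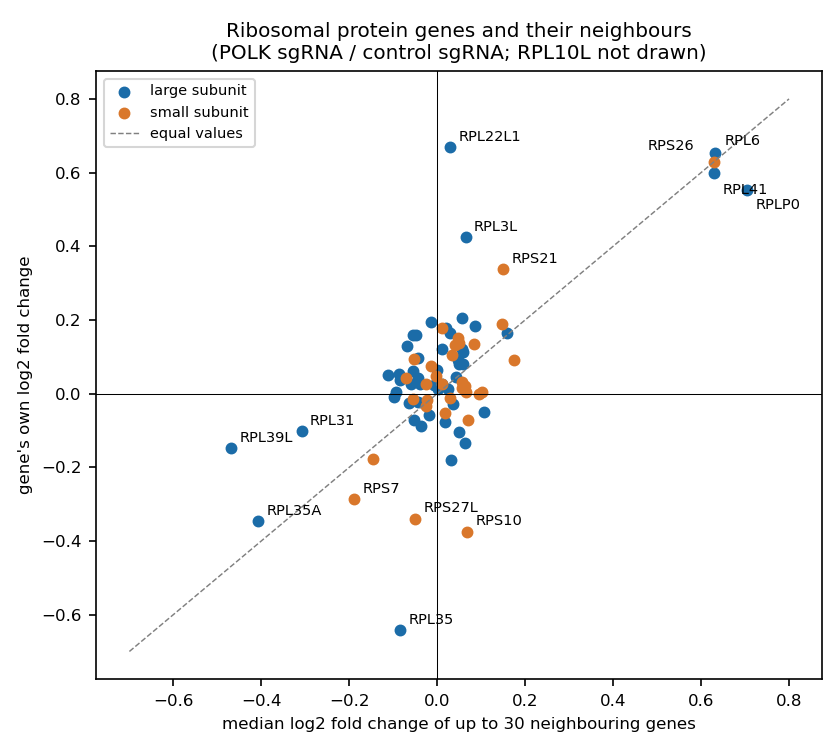
Each point is a ribosomal protein gene, with the median log2 fold change of up to 30 neighbouring genes on the x axis and its own log2 fold change on the y axis (POLK sgRNA over control sgRNA, 83 genes, RPL10L not drawn). RPL6, RPS26, RPL41 and RPLP0 sit at the upper right near the line of equal values, whereas RPL22L1 and RPL35 lie far from it, with neighbours near 0.

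Of the called members other than RPL10L, RPL35, RPL22L1 and RPS27L changed by over 0.3 beside neighbour medians within 0.1 of zero. RPS10 (-0.37) and RPL3L (0.42) did so too but were not called. RPL35, which lies beside the exit of the tunnel through which the new protein chain leaves, fell the most of all members. It had 622, 636 and 641 CPM in the POLK sgRNA libraries, against 949, 983 and 1030 CPM in the control libraries. All POLK sgRNA libraries were lower, with a log2 fold change of -0.64 (SE 0.02, edgeR adjusted p = 3.37e-19), beside a neighbour median of -0.08 on chromosome 9. RPL22L1, the paralog of RPL22, had 98.5, 98.4 and 98.9 CPM with POLK sgRNA and 61.9, 60.1 and 64.0 CPM with control sgRNA. It rose by 0.67 (SE 0.03, edgeR adjusted p = 4.53e-20), beside a neighbour median of 0.03 on chromosome 3. RPS27L, the paralog of RPS27 and a known p53 target gene, had 81.8, 76.5 and 83.2 CPM with POLK sgRNA and 103, 104 and 98.7 CPM with control sgRNA. It fell by 0.34 on the log2 scale (SE 0.03, edgeR adjusted p = 2.38e-11), beside a neighbour median of -0.05 on chromosome 15.

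The starts of RPL35, RPL35A, RPS7 and RPS21, the core members with the largest called changes off chromosome 12, each carry a pyrimidine run, marked in capitals as above, whichever way the transcript moved.
RPL35 (chr9:124861938-124861997, minus strand): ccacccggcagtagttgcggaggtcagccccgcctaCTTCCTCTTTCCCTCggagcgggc
RPL35A (chr3:197950150-197950209, plus strand): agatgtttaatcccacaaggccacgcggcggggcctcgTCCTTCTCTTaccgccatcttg
RPS7 (chr2:3575220-3575279, plus strand): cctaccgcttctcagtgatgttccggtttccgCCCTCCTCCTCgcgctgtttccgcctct
RPS21 (chr20:62387063-62387122, plus strand): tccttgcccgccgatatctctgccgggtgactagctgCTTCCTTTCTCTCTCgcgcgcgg

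RPS21, a small subunit protein, had 861, 873 and 885 CPM with POLK sgRNA and 662, 696 and 714 CPM with control sgRNA, a log2 fold change of 0.34 (SE 0.02, edgeR adjusted p = 8.15e-14). Its neighbours on chromosome 20 had a median of 0.15. RPS7, a small subunit protein that can bind MDM2, had 860, 874 and 847 CPM with POLK sgRNA and 1037, 1051 and 1059 CPM with control sgRNA, a log2 fold change of -0.29 (SE 0.02, edgeR adjusted p = 7.37e-14). On chromosome 2 the neighbours of RPS7 had a median of -0.19. In both genes the groups were apart, and both neighbour medians had the sign of the member's own change.

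**Figure D3:**
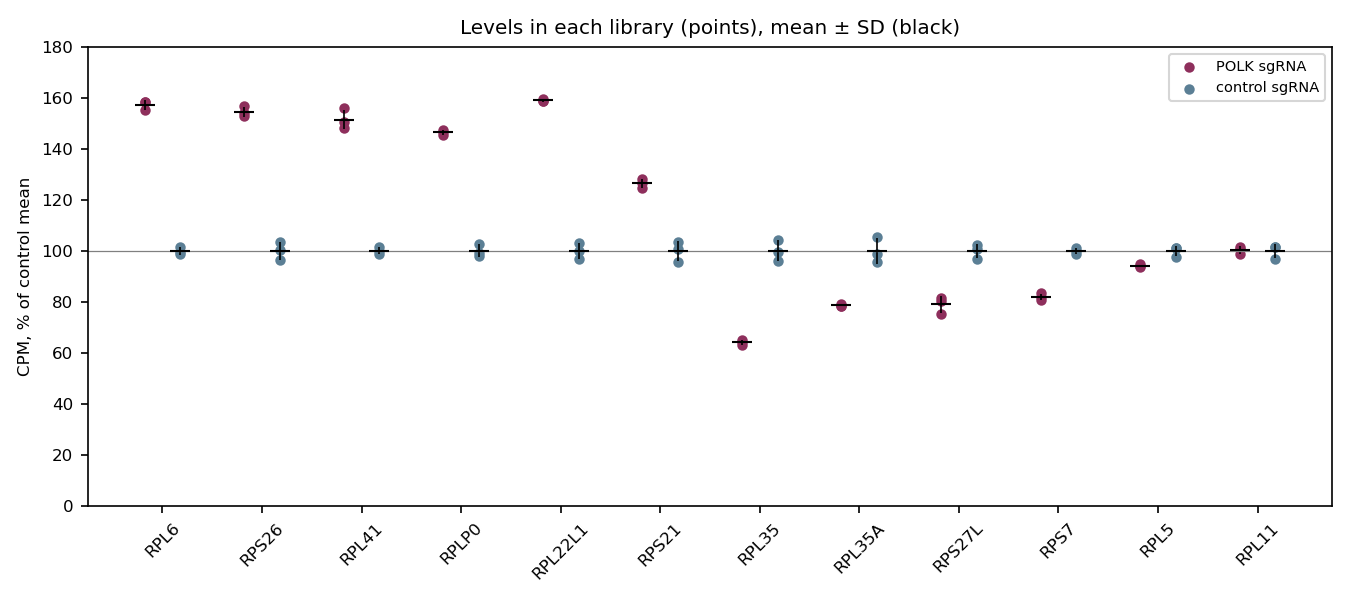
Level of 12 ribosomal protein genes in each library as a percent of the control mean in CPM, POLK sgRNA libraries left and control sgRNA libraries right for each gene, with mean and SD in black (n = 3 each). The POLK sgRNA points of RPL6, RPS26, RPL41, RPLP0, RPL22L1 and RPS21 lie above all control points, those of RPL35, RPL35A, RPS27L, RPS7 and RPL5 lie below them, and those of RPL11 overlap them.

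Within groups of proteins that sit together in the ribosome, some transcripts were called and others were not. In the stalk, RPLP0 rose by 0.55 and RPLP2, which binds to it as a dimer with RPLP1, by 0.18 (642 ± 3.0 CPM with POLK sgRNA and 565 ± 16 CPM with control sgRNA, SD, n = 3 each). RPLP1 itself was at 1577, 1595 and 1598 CPM with POLK sgRNA and 1547, 1597 and 1584 CPM with control sgRNA, and the groups overlapped. RPLP1 was not called.

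RPL5 and RPL11 join the ribosome with the 5S ribosomal RNA, and that particle can bind MDM2 when it is not built in. RPL5 had 686, 679 and 681 CPM with POLK sgRNA and 708, 734 and 732 CPM with control sgRNA, a log2 fold change of -0.09 (SE 0.02, edgeR adjusted p = 0.00066). RPL11 had 1052, 1081 and 1071 CPM with POLK sgRNA and 1030, 1080 and 1082 CPM with control sgRNA. Its groups overlapped, and its fold change of 0.01 was not called. The ubiquitin fusion RPS27A, which supplies both ubiquitin and a small subunit protein, fell by 0.18 on the log2 scale (698 ± 2.1 CPM with POLK sgRNA and 790 ± 8.4 CPM with control sgRNA, SD, n = 3 each). The ubiquitin-like fusion FAU was at -0.04 on the log2 scale and was not called.

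Around the exit tunnel, RPL4 rose by 0.17 (1588 ± 19 CPM with POLK sgRNA and 1415 ± 14 CPM with control sgRNA, SD, n = 3 each). RPL17 at -0.02 and RPL39 at 0.03 were not called. RPS2 and RPS3, which line the entry of the mRNA channel, were at 0.02 and 0.03, and RPS6, the substrate of S6 kinase, was also at 0.03. None of these 3 was called, and in each the groups overlapped. RPS2, RPL8, RPL13A and RPS16 were among the members with the highest levels per kilobase of transcript, from 2932 CPM per kilobase (RPS16) to 3372 CPM per kilobase (RPL13A) with POLK sgRNA. These levels depend on the length of the annotated principal transcript, which runs from 296 to 7686 bases among the members and can differ from that of the main message. Of these 4, RPL13A and RPS16 rose by 0.20 and 0.15, RPL8 fell by 0.05, and RPS2 was not called. The call on RPL8 was at an edgeR adjusted p of 0.0443, its groups overlapped, and it was lost under 7 of 14 alternative settings.

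RPL27A, a further large subunit protein, had 796, 808 and 808 CPM with POLK sgRNA and 688, 696 and 705 CPM with control sgRNA, a log2 fold change of 0.21. RPL26 was at 50.04 ± 1.80 CPM with POLK sgRNA and 54.8 ± 2.2 CPM with control sgRNA, and RPL3 at 2343 ± 34 CPM with POLK sgRNA and 2070 ± 55 CPM with control sgRNA (SD, n = 3 each). RPL26 fell by 0.13 on the log2 scale and RPL3, which lies near the peptidyl transferase centre, rose by 0.18.

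By chromosome, the members lie on 21 chromosomes. On chromosome 19, 8 of 12 members were called higher and 2 lower, over a range of -0.07 to 0.20 on the log2 scale. On chromosome 11, 4 of 5 rose and none fell, and on chromosome 2, 3 of 4 fell and none rose. The 28 members whose gene contains at least 1 small nucleolar RNA gene had 16 higher and 2 lower (median 0.08), and the 56 without one had 20 higher and 15 lower (median 0.02). Among all 84 members 42.9% were called higher and 20.2% lower, and among all tested genes 32.8% and 31.6%.

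The ratio of paralog to core transcript did not overlap between the groups in 6 of 8 pairs. Beside the 67.7% of all tested genes whose levels did not overlap, the count of pairs is near the background. Among the 6 is RPL10L over RPL10, and RPL10L passed the filter only through the group in which it is high. A paralog level is given here as a percent of the CPM of its core partner in the same library. RPL22L1 stood at 21.7%, 21.9% and 22.3% of RPL22 in the POLK sgRNA libraries, against 14.28%, 13.84% and 13.96% in the control libraries. RPL22 itself was at 449 ± 4.7 CPM with POLK sgRNA and 442 ± 14 CPM with control sgRNA (SD, n = 3 each) and was not called. RPS27L stood at 9.65%, 9.01% and 9.57% of RPS27 with POLK sgRNA and at 12.5%, 12.4% and 11.5% with control sgRNA, while RPS27 was not called. In both pairs the paralog was called and the core gene was not.

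RPL7L1, whose role is in building the large subunit, was at 13.8% of RPL7 with POLK sgRNA and 14.6% with control sgRNA, and RPL39L, which is known from testis, at 3.04% of RPL39 with POLK sgRNA and 3.44% with control sgRNA. RPL39L itself fell by 0.15 on the log2 scale, a call that was lost without control library 1 or without POLK sgRNA library 2, with an edgeR adjusted p of up to 0.104. The log2 change of the ratio of RPL39L to RPL39 was -0.18, and -0.11 without control library 1. RPL26L1 was at 113% of RPL26 with POLK sgRNA and 104% with control sgRNA, with RPL26 lower and RPL26L1 not called. In these pairs the groups did not overlap, for RPL26L1 narrowly, with a lowest value of 105.8% with POLK sgRNA and a highest of 105.01% with control sgRNA. The level of RPL26, and so its ratio to RPL26L1, is uncertain, since RPL26 shares 14.3% of its exon bases with another coding gene. In all, 28 members share exon bases with another coding gene. Among them are RPL10 (34.2%) and RPL22 (10.1%), the partners of RPL10L and RPL22L1, so the same limit holds for those ratios. RPL3L, the striated muscle form of RPL3, had 55 counts over the POLK sgRNA libraries and 39 over the control libraries. The ratio of the counts, each relative to the summed TMM-scaled library sizes of its group, was 1.34, with an exact 95% interval of 0.874 to 2.08 that covers counting error only. RPL36AL, which the symbol rule leaves out, was at 144 ± 3.5 CPM with POLK sgRNA and 138 ± 6.6 CPM with control sgRNA, and its ratio to RPL36A overlapped between groups.

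**Figure D4:**
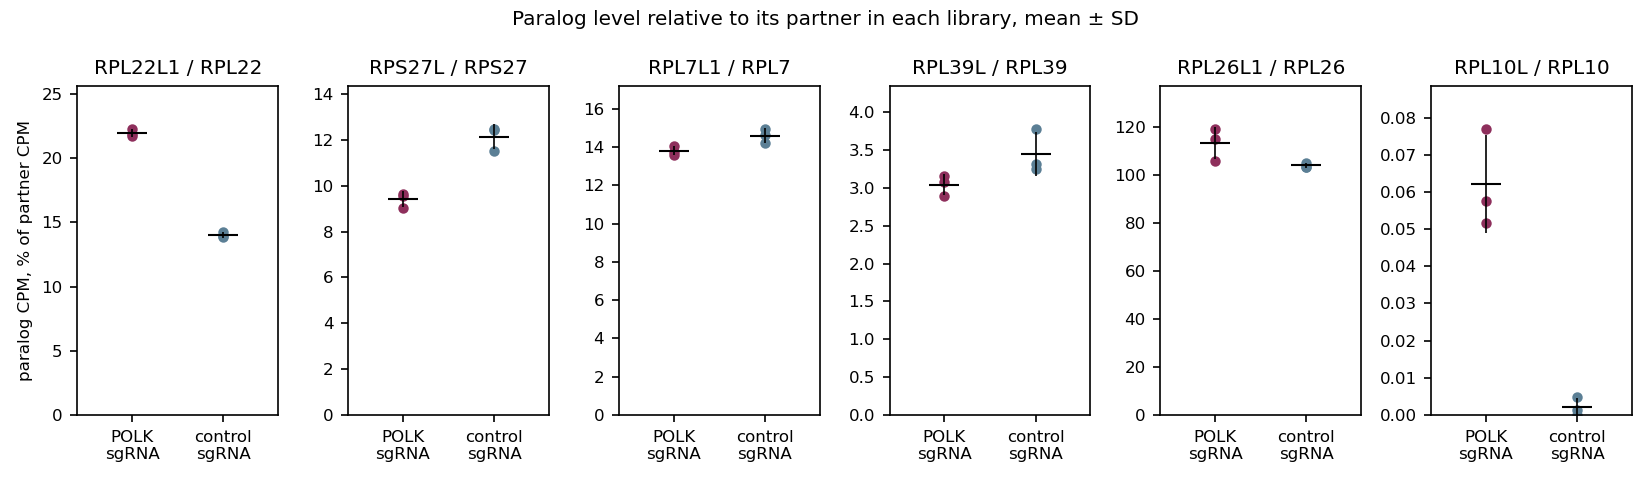
Paralog level as a percent of the CPM of its partner gene in each library for 6 pairs, POLK sgRNA left and control sgRNA right, with mean and SD in black (n = 3 each). RPL22L1 over RPL22 and RPL10L over RPL10 are higher with POLK sgRNA, and RPS27L over RPS27 is lower.

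The core starts of RPL22 and RPS27 carry runs of 11 and 9 pyrimidines, shown here with those of their paralogs because the paralogs and not the core genes changed. RPL22L1 carries a run of 10, and the longest run of RPS27L at its listed start is 3 bases.
RPL22L1 (chr3:170870176-170870235, minus strand): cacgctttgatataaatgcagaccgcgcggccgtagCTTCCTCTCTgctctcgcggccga
RPL22 (chr1:6199576-6199635, minus strand): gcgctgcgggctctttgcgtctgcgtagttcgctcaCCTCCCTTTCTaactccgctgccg
RPS27L (chr15:63157458-63157517, minus strand): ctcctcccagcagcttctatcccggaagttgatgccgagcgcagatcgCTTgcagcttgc
RPS27 (chr1:153990722-153990781, plus strand): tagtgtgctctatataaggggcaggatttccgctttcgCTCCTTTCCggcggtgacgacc

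RPL10L, an intronless copy of the X-linked RPL10 that is known in mice for replacing it in male germ cells, had 46, 50 and 35 counts in the POLK sgRNA libraries and 3, 1 and 0 counts in the control libraries. The level was 0.863 ± 0.184 CPM with POLK sgRNA and 0.029 ± 0.036 CPM with control sgRNA (SD, n = 3 each). No p is given for this gene, since it entered the test only through the group in which it is high. The ratio of the counts, scaled in the same way, was 31.2, with an exact 95% interval of 11.9 to 116 for counting error only. Control library 1 held 3 of the 4 control counts, and without it the log2 fold change was 6.14, beside 4.84 with it. Even so RPL10L stayed at 0.0621% of RPL10 with POLK sgRNA, and 0.00206% with control sgRNA. RPL10 was at 1390 ± 5.3 CPM with POLK sgRNA and 1448 ± 24 CPM with control sgRNA, a log2 fold change of -0.06, and that call was lost without control library 2, POLK sgRNA library 2 or POLK sgRNA library 3 (edgeR adjusted p of up to 0.0612). The 30 neighbours of RPL10L on chromosome 14 had a median of -0.01.

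Reads of RPL10L and RPL10 can be told apart only where the sequences differ. Their coding sequences were 89.3% identical over 645 bases, and the longest stretch shared by the transcripts was 50 bases. The first 180 coding bases of both (GENCODE 29 transcripts, GRCh38) are shown as an example of such differences. Only counts per gene were at hand, so which bases the RPL10L reads cover was not tested. Capitals mark the 20 bases that differ.
RPL10L coding bases 1 to 180: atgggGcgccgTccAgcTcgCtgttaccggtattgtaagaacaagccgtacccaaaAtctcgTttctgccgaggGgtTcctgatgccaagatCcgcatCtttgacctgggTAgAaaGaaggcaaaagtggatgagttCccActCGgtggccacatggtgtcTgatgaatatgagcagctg
RPL10 coding bases 1 to 180: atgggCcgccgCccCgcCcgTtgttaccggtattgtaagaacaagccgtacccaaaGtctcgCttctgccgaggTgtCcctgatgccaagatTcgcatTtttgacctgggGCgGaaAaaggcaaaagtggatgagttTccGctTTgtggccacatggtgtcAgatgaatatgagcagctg

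The other pairs range from 54.0% identity (RPL7L1 and RPL7, longest shared stretch 11 bases) to 94.9% (RPL39L and RPL39, longest shared stretch 67 bases), and RPL22L1 and RPL22 were 65.4% identical with a longest shared stretch of 17 bases. Of the 84 members, 77 have at least 1 named pseudogene in the annotation, 1144 in all, so values of single members can include or lose such reads. Some members had low counts beside readthrough genes that hold the same exons. RPS10, a small subunit protein, was at 1.04 ± 0.081 CPM with POLK sgRNA and 1.35 ± 0.18 CPM with control sgRNA (SD, n = 3 each), and 39.4% of its exon bases also belong to RPS10-NUDT3. RPL36A (3.15 CPM with POLK sgRNA and 3.25 CPM with control sgRNA) overlaps RPL36A-HNRNPH2, and RPL17 (21.1 CPM with POLK sgRNA and 21.3 CPM with control sgRNA) shares 24.8% of its exon bases with RPL17-C18orf32. These 3 levels are uncertain, and none of the 3 was called.

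Of the 84 members, 67 had a start in the RefSeq promoter table (GRCh38.p14). Where a gene had more than 1 listed start, the first was used. Runs of at least 8 bases of C and T were sought on the gene's strand. A run counted if it overlapped the 10 bases on either side of the start. Such a run was present in 52 of the 67 (77.6%), beside 15.4% of all 27305 genes in the table. At any listed start it was present in 55 of the 67 (82.1%), beside 18.8% of all genes in the table. The median longest run at the first listed start was 11 bases for the members and 4 bases for all genes. At that start a run of at least 8 bases was present in 1 of 5 paralogs and in 51 of 62 core members (82.3%). By direction of change it was present in 25 of 30 members that rose (83.3%), 11 of 13 that fell (84.6%) and 16 of 24 that were not called (66.7%).

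TATAAA, the core of the TATA box, was searched on both strands of the 300-base window, as were CCGGAAG, the core of sites for ETS factors, and AAGATGG, the core of sites for YY1. TATAAA was in 7 of 67 member windows (10.4%) and in 3264 of all 27305 windows. It was in 6 of the 30 members that rose and in 0 of the 13 that fell, and RPLP0 and RPL10L are among those that hold it. RPL10L, tested only through the group in which it is high, is counted among the 6. CCGGAAG was in 34.3% of member windows and 10.7% of all windows, and AAGATGG in 13.4% of member windows and 6.1% of all windows. A match of letters is a description and not a site in use.

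**Figure D5:**
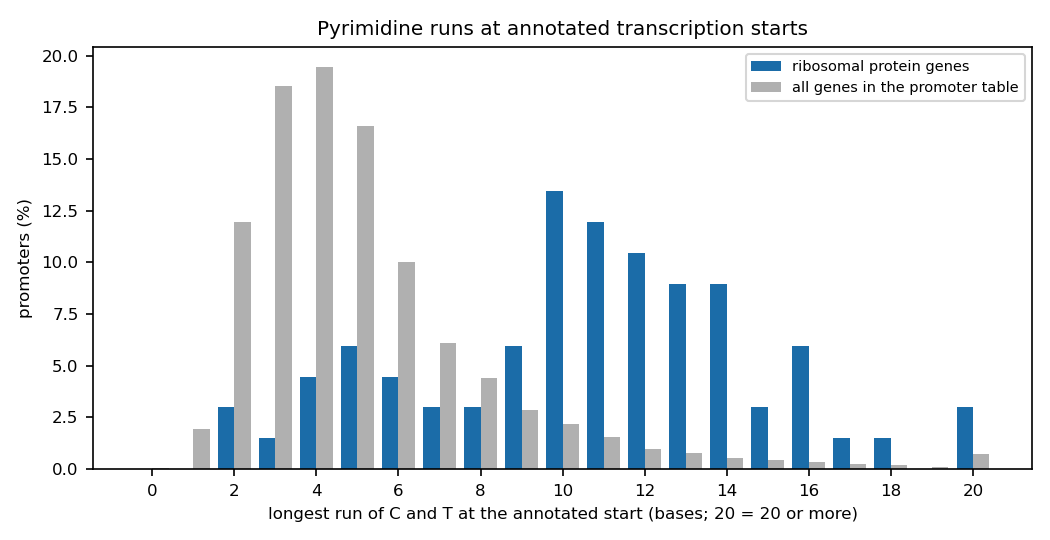
Percent of promoters by the length of the longest run of C and T at the annotated start, in bases. Blue bars are 67 ribosomal protein genes and grey bars all 27305 genes of the RefSeq table, each at its first listed start. Ribosomal protein genes centre on a median of 11 bases and all genes on 4 bases.

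Other genes on which ribosome production depends were read from lists. Of 19 tested genes outside the ribosome whose messages are known to carry a TOP motif, 10 rose (52.6%) and 4 fell (21.1%). Their median log2 fold change was 0.05. Beside these and the lists below, 32.8% of all tested genes were called higher and 31.6% lower. EIF4B, which helps unwind messages for scanning, rose by 0.71, and NACA, which shields new chains at the tunnel exit, by 0.65, both on chromosome 12. PABPC1, the poly(A) binding protein, fell by 0.27 on the log2 scale, and the elongation factor subunit EEF1D by 0.09. EIF4B and NACA thus lie on the chromosome of RPL6, RPS26, RPL41 and RPLP0.

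Among genes that assemble the subunits, more were called lower than higher. Of 44 tested small subunit assembly genes, 11 rose (25.0%) and 23 fell (52.3%), with a median of -0.06. Of 54 large subunit assembly genes, 9 rose (16.7%) and 22 fell (40.7%), with a median of -0.05. Over all tested genes the shares were 32.8% and 31.6%. Among the 883 other genes at 200 CPM or more, a higher level than many listed here, 26.8% rose and 51.4% fell. Among the small subunit genes, KRR1 rose by 0.69 and DHX37 by 0.54, both on chromosome 12, while UTP4 fell by 0.53 and NOB1, which makes the last cut of the 18S ribosomal RNA, by 0.44, both on chromosome 16. Among the large subunit genes, DDX54 on chromosome 12 rose by 0.65 and EIF6, which keeps unfinished large subunits from joining, by 0.29. NIP7 on chromosome 16 fell by 0.56 and RRP1B by 0.37.

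Of 15 genes of RNA polymerase I transcription, which makes the ribosomal RNA, 4 rose (26.7%) and 5 fell (33.3%), with a median of 0.03. POLR1B fell by 0.51 and POLR1A by 0.34, both subunits encoded on chromosome 2, and ZNRD1 rose by 0.24 and TAF1D by 0.15. Of 11 genes that escort ribosomal proteins to the nucleus or into the subunit, 2 rose (18.2%) and 6 fell (54.5%), with a median of -0.08. IPO9 and PDCD2 rose by 0.10 and 0.11, and TNPO1 and BCCIP fell by 0.22 and 0.21.

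Of 17 regulators of ribosomal protein genes or of TOP translation, 6 rose (35.3%) and 7 fell (41.2%), with a median of -0.02. MYC, which drives ribosome production in many cells, was at 23.0 ± 1.7 CPM with POLK sgRNA and 33.4 ± 0.55 CPM with control sgRNA (SD, n = 3 each), a log2 fold change of -0.53 (SE 0.04, edgeR adjusted p = 2.29e-12). Its partner MAX fell by 0.21 on the log2 scale. LARP4, a poly(A) and message binding protein encoded on chromosome 12, rose by 0.50, and EIF4EBP2, a translation repressor under mTOR control, by 0.26.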

How the data were processed

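RNA-seq libraries of A375 cells came from the TruSeq RNA V2 kit per the labels' protocols, a kit without strand marking. The submitters' processing notes name FastQC, Trimmomatic, STAR, DESeq2 and the build GRCh38. How reads were counted, and against which annotation, the sources used here do not give. Per gene, the authors deposited raw counts, whole numbers that sum to 42852645 to 56891905 per library, and the columns were matched to samples by name.

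Genes were filtered with filterByExpr (minimum count 10, minimum total 15), scaled by TMM (factors 0.991 to 1.007) and tested with edgeR 4.0.16 in R 4.3.3 by the quasi-likelihood F test (two-sided, robust, without covariates) over 13930 genes. The Benjamini-Hochberg threshold was 0.05. The steps were tested on simulated data. Libraries of a group differed by more than sampling noise (chi-square per degree of freedom 1.95 to 3.90). Sums, ratios, neighbours and promoter letters are descriptions without a test. Positions, transcript lengths and coding sequences came from GENCODE 29 and promoters from RefSeq.

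Members and lists were chosen with earlier results of these data known. Named genes were POLK, the 8 members with the largest changes in each direction, paralog pairs, the 5 highest per length, the role groups named in the text and 2 genes per list and direction. RPS10, RPL31 and FAU were named after their values were seen. Some genes that the rule names are not reported here. Marker lists of keratinocytes, leukocytes and endothelial cells summed to 6.90 to 8.56, 0.107 to 0.143 and 2.50 to 2.80 CPM with POLK sgRNA and to 4.27 to 4.85, 0.354 to 0.444 and 1.59 to 2.03 CPM with control sgRNA. Alternatives were other scalings and filters, DESeq2 1.42.0, limma-voom (limma 3.58.1), the replicate number as a block, and each library left out.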

Additional observations from a re-analysis of the deposited data

How the results depend on the processing

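The counts of ribosomal protein genes called kept within 1.5 times under every alternative run. The members called higher numbered 32 to 39 and those called lower 13 to 19 with each library left out in turn, beside 36 and 17 with all 6. The large subunit then had 21 to 25 higher and 9 to 12 lower, the small subunit 11 to 14 higher and 4 to 7 lower, and all tested genes 4181 to 4441 higher and 4091 to 4286 lower. The log2 change of the summed CPM was 0.0493 to 0.0870, and that of the large to small ratio 0.0373 to 0.0445. Without the 5 highest members the ratio's log2 change was 0.0322, beside 0.0416 with them. Without the 4 members on chromosome 12, chosen after seeing the data, the ratio's log2 change was 0.00389 and that of the sum 0.0456, beside 0.0734. The median of all genes moved by less than 0.1 under any scaling.

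Signs turned in 8 members that were not called, and no turned sign was called. RPL11 was at -0.00140 with DESeq2's size factors and -0.00145 with DESeq2, and at -0.0235 to 0.0171 with libraries left out (-0.0235 without control library 1, -0.00328 without POLK sgRNA library 2). RPL26L1 was at 0.00713 with library size alone and at -0.0416 to 0.0146 with libraries left out (0.0146 without control library 2, 0.0137 without POLK sgRNA library 3). RPL36A was at 0.00716 with limma-voom and at -0.214 to 0.134 with libraries left out (0.134 without control library 1, 0.0197 without POLK sgRNA library 1). With libraries left out, RPL39 was at -0.00396 to 0.0381, RPLP1 at -0.00646 to 0.0196 and RPS3 at -0.00013 to 0.0642, each lowest without control library 1, where all were negative. RPS2 was at -0.00773 (without control library 2) to 0.0452, and RPL17 at -0.0570 to 0.0345 (without POLK sgRNA library 1). The cause was not tested. RPS3 was called higher without control library 3 (0.0642), and RPL36AL was called higher under 4 settings.

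Same-numbered libraries deviated from their group means with correlations of -0.030, -0.029 and -0.037, so the numbers do not pair them. With the replicate number as a block, 37 members were called higher and 15 lower, and 4483 and 4290 of all tested genes. With DESeq2 the counts of members called were 33 higher and 17 lower. Depth limits RPL10L, RPL3L and RPS10, which have few counts, and with a mean of at least 1 CPM required RPL3L and RPL10L were not tested.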
